A study of Mus musculus with 32 samples.

Results

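The change of mouse embryonic liver from 10.5 to 11.5 days post coitum is described here on 4 of the 32 Affymetrix MG 430 2.0 arrays of a study of liver development and regeneration, 2 for each stage, chosen by the source name of each sample. The other 28 arrays hold liver of 4 later embryonic stages up to 16.5 days, unoperated liver of females aged 10 weeks, and liver of such females at 9 times after partial removal of the organ. All mice were of the CD-1 stock, and the labels name no mutation or transgene in any group. The embryonic groups received no treatment: pregnant females were killed, and livers were microdissected and, according to the labels, freed of other tissue, including the large vein behind the liver. Each array took labelled cRNA from 6 microg of total RNA of a pool of at least 3 livers from different embryos. The p-values rest on the spread between replicate arrays within all 16 groups of the series, adult liver included. The labels do not give the sex of the embryos. Other label fields of these samples disagree with the source name: the age field reads 10.5 days for all 12 embryonic arrays, and the description field speaks of adult liver. The titles give the same stages as the source names.

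At these stages the liver is a young bud. Hepatoblasts, the common precursors of hepatocytes and bile duct cells, have left the gut tube and grown as cords into the septum transversum, a sheet of mesenchyme that lies directly under the heart and also gives rise to stellate cells and to the covering mesothelium. Blood progenitors then settle in the bud, which becomes the main site of blood formation of the embryo, while the large nucleated red cells made earlier in the yolk sac still circulate and carry embryonic globins. In bulk RNA of this kind, fewer cells of a type and less RNA per cell cannot be told apart.

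The deposited value of a probe set is an intensity on a linear scale, called the level below, and 18194 genes were tested as log2(level + 16) with limma. Differences are 11.5 minus 10.5 days on that scale, folds are taken from it and understate the change of dim genes, and a gene was called when its Benjamini-Hochberg adjusted p over all 18194 genes was under 0.05. One array stood apart: array 1 of 10.5 days had a log2 ratio of the 3' to the 5' Gapdh control probe sets of 1.49, against -0.43 to -0.17 on the other 11 embryonic arrays, a sign of shorter RNA or cRNA. The log2 values of the 2 arrays of 10.5 days differed with an SD of 0.537 across genes, against 0.343 to 0.373 at the 5 other embryonic stages. Results are therefore also given without that array. The arrays give no read depth, and their number limits the precision.

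Between 10.5 and 11.5 days 1413 genes were called, 7.77% of those tested, of which 672 (3.69%) rose and 741 (4.07%) fell. At least 2-fold changes were called for 336 rises (1.85%) and 322 falls (1.77%). The levels of the stages did not overlap for 8934 genes (49.1%), called or not. Without array 1 of 10.5 days 581 genes were called, 299 up and 282 down, and without array 2 of that stage 2604, 1092 up and 1512 down. Leaving out array 1 or array 2 of 11.5 days gave 537 and 949 calls. The number of calls thus depended on the array left out. List counts without 1 array, given below, therefore do not compare directly with counts from all arrays. In the fit of all arrays the following day, 11.5 to 12.5 days, called 3.18% of genes, with 497 rises (2.73%) and 82 falls (0.451%). No later step had more than 24 calls. Because both steps use the 11.5-day arrays, the steps are compared only by a test of the difference between them, which called 284 genes (1.56%), 98 more positive (0.539%) and 186 more negative (1.02%) in the first step.

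Many genes of liver secretion and of blood rose, and many genes of heart muscle and of connective tissue fell. Of 41 lists holding 907 measured genes, the largest median rises were in coagulation factors (1.40), proteins of the red cell membrane (1.34), plasma proteins (1.29), heme synthesis (1.13) and megakaryocyte genes (1.10), and the largest median falls in cardiac muscle (-1.17) and extracellular matrix (-0.75). The median over all genes was 0. The lists were chosen with earlier results of these data known, so their counts and medians are descriptions and no independent test. Of the called genes, 118 of those that rose and 124 of those that fell belong to a list.

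**Figure D1:**
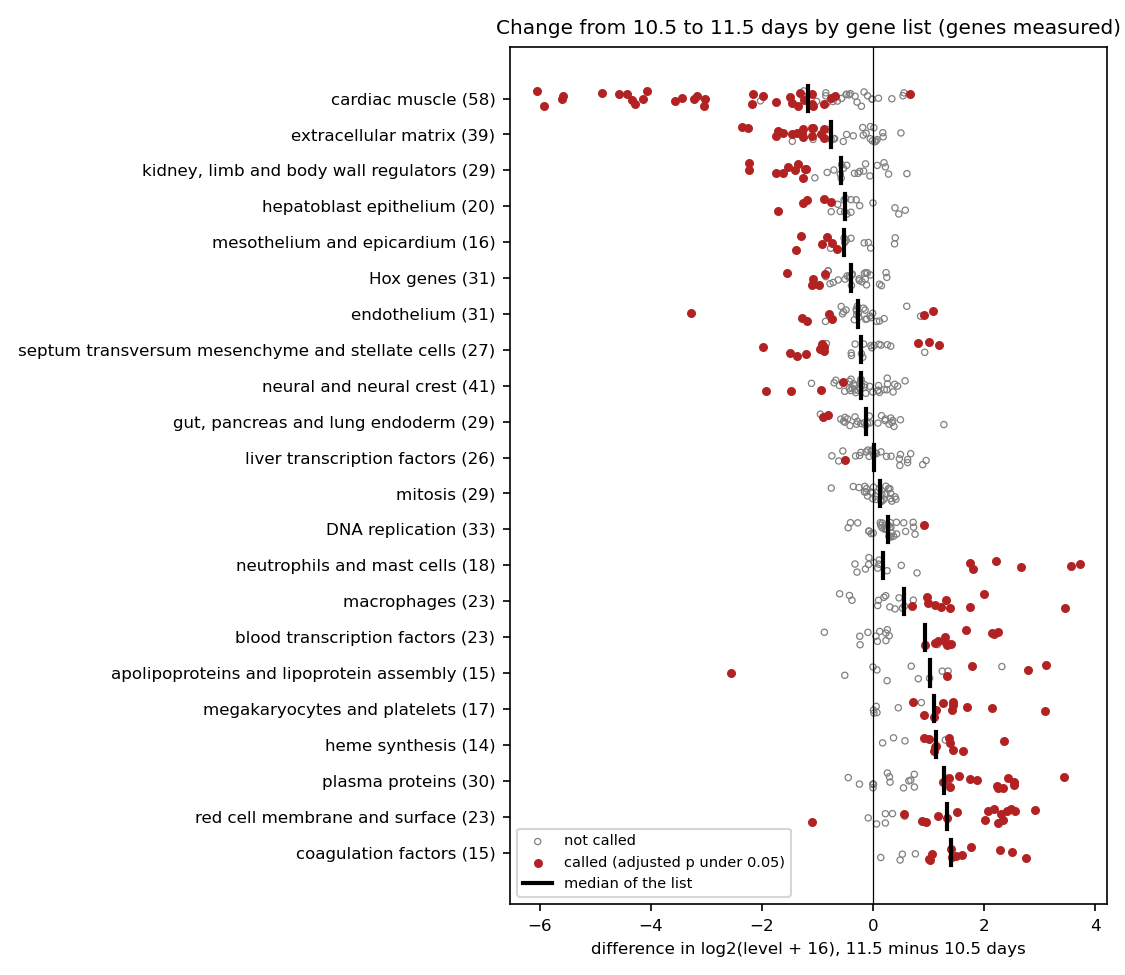
Difference in log2(level + 16) between 11.5 and 10.5 days for each measured gene of 22 lists, with called genes filled, other genes open and the list's median as a bar. Cardiac muscle reaches a difference of -6.05, and the plasma, coagulation, red cell and megakaryocyte lists lie mostly to the right of 0.

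Heart muscle transcripts were abundant in the 10.5-day samples and low a day later. Of 58 measured genes of the cardiac muscle list, 32 fell and 1 rose, against 4.07% and 3.69% of all genes. The list also held 11 of the 12 largest falls. These were ranked among called genes without overlap between stages and with a higher stage mean above the median of all values. The slow myosin heavy chain Myh7 had levels of 2894 and 947 at 10.5 days and 24.2 and -11.5 at 11.5 days (difference -6.05, SE 0.47, adjusted p = 4.46e-08). The cardiac hormone precursor gene Nppa had levels of 1582 and 965 and then 7.98 and 1.68 (-5.93, SE 0.47, adjusted p = 5.55e-08). Every one of these values at 10.5 days lay far above both values at 11.5 days, and the fitted falls were 66.0-fold for Myh7 and 60.8-fold for Nppa. Cardiac alpha-actin, Actc1, fell from 6147 and 5044 to 94.1 and 107 (48.0-fold, SE 0.32 on the log2 scale, adjusted p = 5e-10). The atrial myosin light chain Myl7 fell from 4203 and 2734 to 102 and 97.8 (29.4-fold, adjusted p = 4.51e-06). Troponin T of heart, Tnnt2, fell from 2358 and 1159 to 17.9 and 18.8 (48.6-fold, adjusted p = 1.9e-09). Another of its probe sets was dim at both stages and showed a difference of -0.05. A further Tnnt2 probe set had 2146 and 1211 and then -37.3 and -85.9. Without any 1 of the 4 arrays, Myh7, Nppa, Actc1, Myl7 and Tnnt2 kept their calls.

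The falls covered several parts of the contractile apparatus. Myosin chains of atrium and ventricle fell (Myl4 -4.57, Myh6 -4.33, Myl2 -4.28, Myl3 -4.06), as did the troponin I chains of slow fibres and of heart, Tnni1 (-3.57) and Tnni3 (-4.15), the muscle LIM protein Csrp3 (-4.42), the calcium release channel Ryr2 (-3.03) and the T-box factor Tbx20 (-1.47, lost without array 1 of either stage). Array 1 of 10.5 days had the higher level of each of Myh7, Nppa, Actc1, Myl7, Tnnt2 and Myh6. Of the early heart regulators, 3 were not called: Nkx2-5 had levels of 332 and 153 and then 93.2 and 116 (adjusted p = 0.0653), Tbx5 258 and 344 and then 109.9 and 123 (adjusted p = 0.106), and Hand1 a difference of -0.64. The one rise was Tcap, a cap of the sarcomeric protein titin (0.67), whose call was lost without array 1 of 10.5 days and without either array of 11.5 days. The median difference of the 58 members was -1.17 with all arrays. It was -0.85 and -1.46 without array 1 or 2 of 10.5 days, and -1.15 and -1.09 without array 1 or 2 of 11.5 days.

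The heart genes returned on the 12.5-day arrays and were lower again after that. The summed level of the 58 genes was 41368 and 24469 on the arrays of 10.5 days, 5026 and 4701 at 11.5 days, 9787 and 20757 at 12.5 days, 5964 and 6274 at 13.5 days, between 6470 and 8074 at 14.5 and 16.5 days, and 6045 and 6187 in unoperated adult liver. Members above a level of 500 on both arrays of a stage numbered 13 at 10.5 days, 1 at 11.5 days, 3 at 12.5 days and 1 at 13.5 days. Actc1 had levels of 1958 and 4319.9 at 12.5 days and 434 and 644 at 13.5 days, and Nppa 178 and 1050.0 and then 4.32 and -7.52. Array 2 of 12.5 days was the higher one for both. From 11.5 to 12.5 days 18 members rose, against 2.73% of all genes, and 24 of 58 had a more negative first step in the test of the difference between steps, against 1.02% of all genes. For Actc1 that difference was -10.24 (SE 0.56, adjusted p = 4.97e-10). With 13.5 days in place of 12.5 days it was -7.82 (adjusted p = 2.97e-08), and 21 members were more negative, against 0.956% of all genes (1.46% in either direction). The summed level was thus lowest at 11.5 days among the 6 embryonic stages. The part that heart tissue in the pools takes in any other fall between 10.5 and 11.5 days was not tested.

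**Figure D2:**
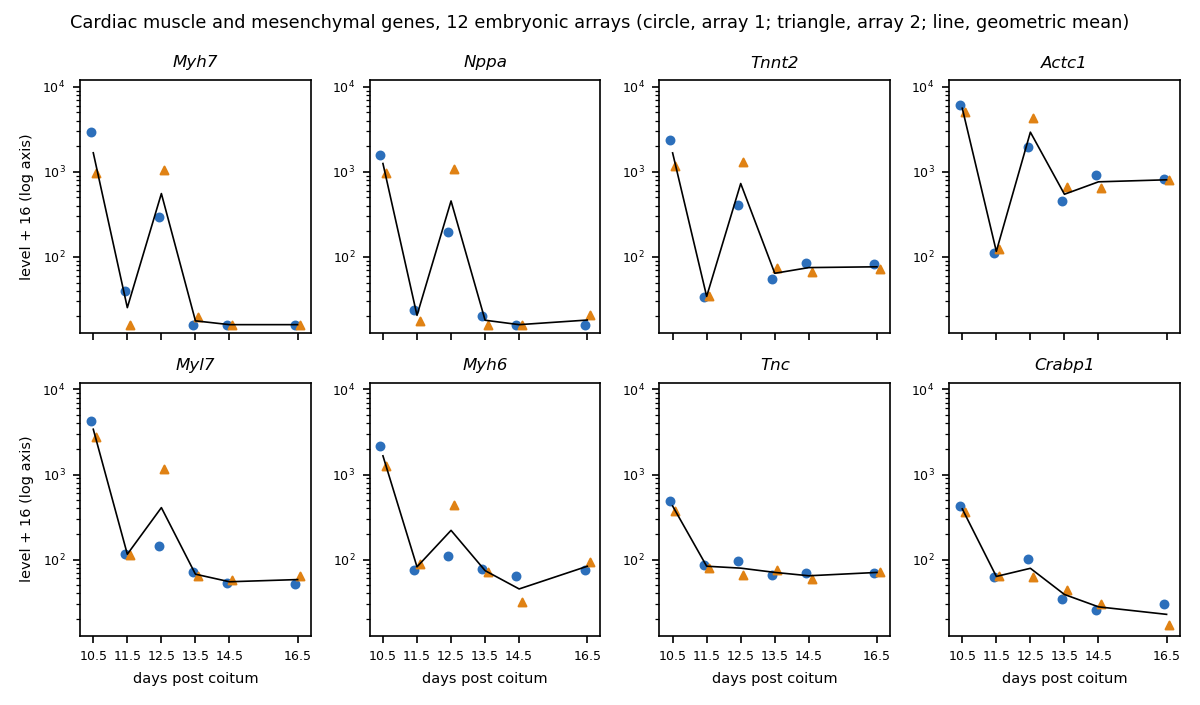
Level + 16 on a log axis against age for 6 heart muscle genes and for Tnc and Crabp1 on the 12 embryonic arrays, with array 1 as circles, array 2 as triangles and a line through the geometric means. Myh7, Nppa, Tnnt2 and Actc1 drop at 11.5 days and return at 12.5 days, whereas Tnc and Crabp1 stay low after 10.5 days.

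Upstream sequence is shown for members of the lists that moved together and hold a motif linked to their tissue. The windows are the 250 bases before the annotated start of the gene, from RefSeq on build GRCm38.p6, and for each list the 2 called genes with the largest change among those with 1 listed start and a match are given. Actin and myosin light chain genes of heart are known for the CArG box, the binding sequence of serum response factor, which is in capitals here. A match on either strand occurred in 1.47% of all 32851 windows of this length and in 5 of the 27 windows of heart genes that fell.
Actc1: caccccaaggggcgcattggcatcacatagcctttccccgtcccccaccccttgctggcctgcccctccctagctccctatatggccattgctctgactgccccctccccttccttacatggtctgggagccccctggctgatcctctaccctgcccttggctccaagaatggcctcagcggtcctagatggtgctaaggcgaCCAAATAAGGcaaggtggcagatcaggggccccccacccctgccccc
Myl7: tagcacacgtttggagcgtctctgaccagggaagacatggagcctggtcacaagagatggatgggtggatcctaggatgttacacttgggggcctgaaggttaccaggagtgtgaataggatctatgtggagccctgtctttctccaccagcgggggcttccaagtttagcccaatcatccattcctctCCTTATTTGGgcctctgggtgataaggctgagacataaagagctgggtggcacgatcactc
The Actc1 window is chr2:114052876-114053125 on the minus strand and the Myl7 window chr11:5898783-5899032 on the minus strand. The match lies 47 to 38 bases before the start in Actc1 and 61 to 52 bases before it in Myl7. It is a description of the letters and says nothing of binding.

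Connective tissue genes fell. Of 39 extracellular matrix genes 16 fell, against 4.07% of all genes. From 11.5 to 12.5 days 2 of the 39 rose, against 2.73% of all genes, and 7 had a more negative first step by the test of the difference between steps, against 1.02%. The adhesion-modulating glycoprotein tenascin C, Tnc, fell from 475 and 354 to 71.3 and 64.2 (5.10-fold, SE 0.21 on the log2 scale, adjusted p = 3.04e-07) and was at 79.8 and 49.8 at 12.5 days. The proteoglycan versican, Vcan, fell from 708 and 502 to 104.5 and 123 (4.74-fold, adjusted p = 2.52e-05), and had 137 and 155 at 12.5 days. Neither gene overlapped between the stages. The basement membrane collagen Col4a1 (-1.75), fibrillin 2 (Fbn2, -1.71) and the fibrillar collagen Col1a1 (-1.45) also fell, each at least 2-fold. Leaving out array 1 of 10.5 days, or array 1 of 11.5 days, gave 10 falls.

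Regulators of limb, kidney and body wall fell in 10 of 29 cases, against 4.07% of all genes. Twist1, a mesenchymal factor, fell from 297 and 139 to 23.4 and 40.0 (-2.23, adjusted p = 0.000842), and the homeobox gene Prrx2 from 362 and 258 to 55.8 and 49.3 (-2.23, adjusted p = 4.3e-06). Irx3 (-1.74) and Tbx2 (-1.62) fell as well. All 4 were dim by 11.5 days, below the median of all values, 74.6. Of 31 Hox genes 5 fell, among them Hoxc5, which had levels of 1787 and 668 and then 321 and 407 and lost its call without array 1 of 10.5 days and without either array of 11.5 days. With array 1 of 10.5 days left out 6 of the limb, kidney and body wall genes and 2 of the Hox genes fell, without array 2 of that stage 15 and 6, and without array 1 or 2 of 11.5 days 8 of the former and 0 and 1 of the latter.

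Most neural, gut and skeletal muscle markers were not called in the first step, where 4.07% of all genes fell. In the next step, 11.5 to 12.5 days, 6 of the 24 skeletal muscle genes rose, against 2.73% of all genes. From 10.5 to 11.5 days 4 of 41 neural and neural crest genes fell. Among them were Dpysl3, a protein of growing axons (665 and 586, then 148 and 158, difference -1.92), and the neurofilament gene Nefm (227 and 311, then 59.8 and 119.5, -1.47). The neuronal marker Stmn2 was dim at both stages (36.8 and 47.6, then 29.8 and 37.4) and not called. In the gut, pancreas and lung list 2 of 29 fell, the foregut factor Sox2 (-0.90) and the stomach factor Barx1 (-0.81), both lost without array 1 of 11.5 days, Sox2 also without array 1 and Barx1 without array 2 of 10.5 days, and Pdx1 of the pancreas showed a difference of -0.22 without a call. Of 24 skeletal muscle genes 4 fell, and 1 did without array 1 of 10.5 days or without either array of 11.5 days. No placental gene was called (0 of 8 by limma, and 1 fall without array 2 of 10.5 days).

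Mesenchyme of the liver itself went both ways. Of 27 genes of the septum transversum and of stellate cells, 8 fell and 3 rose, against 4.07% and 3.69% of all genes. The smooth muscle proteins Tagln (287 and 263, then 56.7 and 58.2, -1.98) and Acta2 (2453 and 2546, then 1022 and 906, -1.36) fell, Acta2 on a probe set of shared sequence (difference -0.09 without such probe sets, adjusted p = 0.906, and -0.45 as the mean of its probe sets, adjusted p = 0.19), as did the intermediate filament desmin, Des (-1.50, but 0.40 as the mean of its probe sets), the growth factor receptor Pdgfra (-0.95) and the transcription factor Hand2 (-0.91, with 0.09 and 0.15 in its other probe sets), the last 2 lost without array 1 of 11.5 days. Tagln, Acta2 and Des are also made by embryonic heart muscle, whose genes fell as described, and the part of heart in their fall was not tested. Against these, the stellate cell products Reln (304 and 392, then 667 and 574, 0.81) and Colec11 (93.7 and 112, then 216 and 231, 1.01) and the ectonucleotidase Nt5e (26.8 and 27.4, then 79.3 and 85.4, 1.19) rose. A brighter probe set of Nt5e did not move with it (172 and 118, then 152 and 124, -0.05), and another of Reln had a difference of 0.16. Reln lost its call without array 1 of 10.5 days and without either array of 11.5 days, and Colec11 without array 1 of 10.5 days. In the list 5 fell and 2 rose without array 1 of 10.5 days, and without array 1 of 11.5 days 3 fell and 2 rose. Lhx2, needed in stellate precursors, had levels of 185 and 246 and then 149 and 236, which overlap. Of 16 genes of mesothelium and epicardium, which share most of their markers, 6 fell: Upk3b went from 311 and 284 to 100.4 and 108 (-1.38, adjusted p = 0.000963), and Bnc1 and Tcf21 had differences of -1.29 and -0.93. The count of falls was 3 without array 1 of either stage. The mesothelial factor Wt1 was not called (192 and 199.8, then 108 and 109, adjusted p = 0.0903).

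In the endothelial list 5 of 31 genes fell and 2 rose, against 4.07% and 3.69% of all genes. The apelin receptor Aplnr, a gene of growing vessels, fell from 492 and 641 to 201 and 244 (-1.28, SE 0.18, adjusted p = 8.19e-05), and the angiopoietin receptor Tek from 240.2 and 224 to 122 and 134 (-0.78). The lectin Clec4g, also a sinusoid gene, was called as a fall on values that disagreed between arrays (1293 and 375, then -76.1 and 324, -3.28), and the call was lost without array 1 of either stage. The hyaluronan receptors Stab2 and Lyve1, which mark the sinusoids of liver, rose. Stab2 went from 46.6 and 52.4 to 107 and 109 (0.92, adjusted p = 0.00486), and Lyve1 from 89.9 and 117 to 221 and 246 (1.07, adjusted p = 0.00166). Lyve1 is also made by some macrophages, whose genes rose in 10 of 23 cases, and their part in it was not tested. The general endothelial gene Pecam1 had a difference of -0.26 and no call. The Stab2 call was lost without array 1 of 10.5 days, and the Lyve1 call was kept; without that array 3 of the 31 genes fell.

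Called genes of signals between mesenchyme and epithelium fell, with 1 exception. Over all genes 4.07% fell in this step. The retinoic acid binding proteins Crabp1 and Crabp2 fell from 410.4 and 349 to 46.0 and 48.9 (-2.64, adjusted p = 2.3e-07) and from 322 and 303 to 75.2 and 79.2 (-1.82). Crabp1 had 85.1 and 45.8 at 12.5 days, and its more negative first step was called (adjusted p = 0.000183). The ligand Wnt2 fell from 192 and 171 to 61.5 and 31.0 (-1.71, adjusted p = 1.4e-05), and the Hedgehog effector Gli3 had a difference of -1.05. Counts were 6 of 34 for Hedgehog, Wnt and Notch, 3 of 29 for FGF, BMP and HGF, and 5 of 22 for TGF-beta, activin and retinoid genes, where Thbs1 rose (0.82, lost without any 1 of the 4 arrays). These counts were 3, 3 and 2 without array 1 of 10.5 days, and without array 1 of 11.5 days 4, 0 and 2. In the imprinted list 4 of 19 fell, among them Ndn (1257 and 866, then 360.3 and 417, -1.39) and Mest (-0.92), and 1 and 2 fell without array 1 of 10.5 and of 11.5 days. The fetal growth factor Igf2 (-0.41) and the growth inhibitor Cdkn1c (-0.47) were not called.

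Secreted proteins of the hepatocyte rose steeply, but the transcription factors of the lineage did not pass the test for a rise in the fit of all arrays. Of 30 plasma protein genes 13 rose, and of 15 coagulation factors 11 rose, against 3.69% of all genes. The carrier protein fetuin A, Ahsg, had levels of 5.84 and 3.34 at 10.5 days and 233 and 186 at 11.5 days (difference 3.45, SE 0.27, adjusted p = 5.55e-08). Albumin, Alb, the main plasma protein, rose from 956 and 1541 to 6433 and 6058 (5.09-fold, SE 0.28 on the log2 scale, adjusted p = 1.17e-05). Ahsg was thus barely measured at the earlier stage and albumin already bright, and neither overlapped between stages. Apoh, a phospholipid-binding apolipoprotein, went from -11.9 and 21.2 to 233 and 161 (3.11, adjusted p = 6.32e-06), and the fatty acid binding protein Fabp1 from 46.5 and 36.1 to 438 and 389 (7.52-fold, adjusted p = 9.29e-06). The protease inhibitor gene Serpina1b rose from 99.6 and 306 to 1130.5 and 922 (5.37-fold, adjusted p = 6.31e-05); it belongs to a family of near-identical copies that a probe set may not separate.

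Coagulation factors rose from low levels. Factor V, F5, had -31.4 and 16.8 and then 146 and 132 (2.76, adjusted p = 9.21e-06), and plasminogen, Plg, 89.3 and 163 and then 677 and 633 (2.29, adjusted p = 0.000322). Prothrombin, F2, rose from 243 and 307 to 869.6 and 739.9 (1.50, SE 0.27, adjusted p = 0.000855). Fibrinogen chains rose less, Fgb by 1.40 and Fga by 1.06, and both lost their call without array 1 of 10.5 days, Fga also without either array of 11.5 days. Leaving out array 1 of 10.5 days, 4 coagulation factors and 7 plasma proteins rose, without array 1 of 11.5 days 6 and 8, and without array 2 of 11.5 days 7 and 10.

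Several bright liver products did not pass the test, in a step where 3.69% of all genes rose. Alpha-fetoprotein, Afp, the main plasma protein of the embryo, was bright at both stages (4525 and 4914, then 5496 and 6108, difference 0.30, adjusted p = 0.347). Other bright probe sets of Afp had differences of 0.62, 0.26 and 0.23, and a dim one -0.40. Transthyretin, Ttr, had 3597 and 2642 and then 3946 and 3459 (0.26, adjusted p = 0.666), and Apoa1 962 and 620.1 and then 2230.1 and 1544 (1.25, adjusted p = 0.058). Among 15 apolipoprotein genes Apoh, Apof, Apoe and Apoa2 rose and Apoa4 fell (325 and 130.1, then 54.8 and 4.61, -2.55, adjusted p = 0.000855). Apoe (239.7 and 799, then 1594 and 1504) and Apoa2 (1124 and 1276, then 3143 and 2921) lost their calls without array 1 of either stage, Apoe also without array 2 of 11.5 days. Most enzymes of metabolism were not called: the urea cycle enzyme Otc rose (18.0 and 37.2, then 116 and 121, 1.66) with 2 others of 19 amino acid genes, the ketone enzyme Bdh1 (2.29) and Fabp1 of 15 fatty acid genes, and none of 18 cholesterol genes (0 called). When only the 12 embryonic arrays were fitted, 10 apolipoprotein, 5 amino acid, 7 fatty acid and 4 cholesterol genes rose, against 1196 of all 18194 genes. With quantile normalization 9, 4, 4 and 0 rose, against 726 of all 18194 genes.

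The transcription factors of the liver were not called, save 1. Of 26, the coactivator Ppargc1a fell (-0.50, lost without array 1 of 10.5 days and without either array of 11.5 days). Hnf4a, the main regulator of hepatocyte genes, had 162 and 265 and then 399.8 and 438 (0.96, adjusted p = 0.0874). Other Hnf4a probe sets had differences of 1.14, 1.02 and 0.07. Cebpa had 95.6 and 119 and then 209 and 214 (0.89, adjusted p = 0.129). In the probe sets used for Hnf4a and Cebpa the stages did not overlap, yet the test was not passed. Both genes were called when only the 12 embryonic arrays were fitted. Rises were called for 2 of the 26 factors in that fit, where 1196 of all 18194 genes rose. With quantile normalization 1 of the 26 rose, against 726 of all 18194 genes. The median difference of the 26 was 0.02 with all arrays. It was 0.12 and 0.05 without array 1 or 2 of 10.5 days, and 0.12 and 0.07 without array 1 or 2 of 11.5 days. Prox1 (0.01), Hhex (0.48) and Foxa2 (-0.07) were not called. Hepatoblast epithelial genes fell in 5 of 20 cases, against 4.07% of all genes. The chromatin protein Hmga2, typical of embryonic cells, went from 4392 and 4581 to 1808 and 1909 (2.40-fold, SE 0.26 on the log2 scale, adjusted p = 0.00316). The claudin Cldn6, the duct factor Sox9 and the keratins Krt8 and Krt19 fell by 0.76 to 1.71 on the log2 scale, and all 4 lost their calls without array 1 of 10.5 days and without either array of 11.5 days. The surface protein Dlk1, a hepatoblast marker, had 2321 and 2852 and then 3599 and 3516 and was not called.

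**Figure D3:**
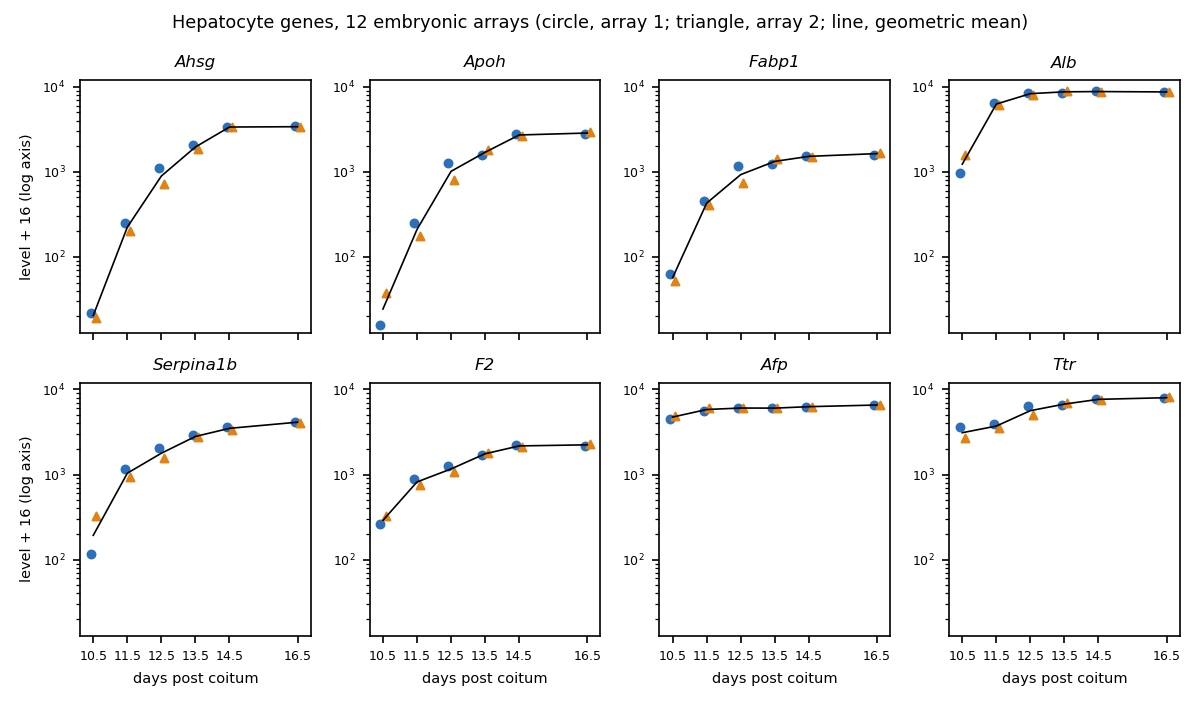
Level + 16 on a log axis against age for 8 hepatocyte genes on the 12 embryonic arrays, with array 1 as circles, array 2 as triangles and a line through the geometric means. Ahsg, Apoh and Fabp1 start near the floor at 10.5 days and climb, and Alb is high from 11.5 days. The Afp probe set shown is nearly level.

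The promoter of albumin is known for a site of the liver factor HNF1, and the letters GTTAAT, one arm of that site, are in capitals in the windows of Alb and Serpina1b. On either strand they occurred in 6.43% of all windows and in 5 of the 10 windows of plasma protein genes that rose.
Serpina1b: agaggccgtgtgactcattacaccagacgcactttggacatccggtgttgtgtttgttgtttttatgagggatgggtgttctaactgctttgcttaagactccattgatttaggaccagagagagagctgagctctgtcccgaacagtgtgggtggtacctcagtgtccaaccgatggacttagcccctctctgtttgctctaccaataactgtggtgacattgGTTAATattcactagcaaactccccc
Alb: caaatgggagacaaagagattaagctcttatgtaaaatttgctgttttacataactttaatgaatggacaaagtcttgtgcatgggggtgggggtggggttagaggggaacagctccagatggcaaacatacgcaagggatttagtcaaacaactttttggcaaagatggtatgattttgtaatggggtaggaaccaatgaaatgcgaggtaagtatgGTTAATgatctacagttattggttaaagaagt
These windows are chr12:103738190-103738439 on the minus strand and chr5:90460620-90460869 on the plus strand, and the matches lie 26 to 21 and 32 to 27 bases before the start.

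Red cell membrane genes and most enzymes of heme synthesis rose, whereas Alas2 and the listed globins were not called. Of 23 genes of the red cell membrane and surface 16 rose and 1 fell, against 3.69% and 4.07% of all genes. The adhesion molecule Icam4 rose from 87.7 and 73.6 to 819.7 and 626 (7.59-fold, SE 0.13 on the log2 scale, adjusted p = 1.16e-11), and the Rh-associated glycoprotein Rhag from 122 and 139 to 875 and 731 (5.57-fold, adjusted p = 1.33e-08). Rhd, of the same blood group complex, rose from 139 and 83.2 to 771 and 488 (5.07-fold, adjusted p = 1.33e-05). In all 3 both 11.5-day arrays were several times above both 10.5-day arrays, and array 1 was the higher at 11.5 days. The erythropoietin receptor Epor rose from 124 and 154 to 718 and 513 (2.01, adjusted p = 2.45e-06) and the anion exchanger Slc4a1 from 487 and 335 to 1326 and 827 (1.34, adjusted p = 0.0075). Slc4a1 lost its call without array 2 of 10.5 days or array 1 of 11.5 days. The exception was the actin cap Tmod1 (148 and 97.7, then 64.2 and 34.5, -1.10), called at an adjusted p of 0.0473 and lost without array 1 of 10.5 days and without either array of 11.5 days. Without array 1 of 10.5 days 13 members rose, and without any other single array of the stages 12 to 16.

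Some rises were larger in the first day than in the next, and others came later. Over all genes 3.69% rose in the first day. Icam4 and Rhag rose by 2.92 and 2.48 in the first step and by 1.12 and 0.93 in the next, and the difference between steps was called for both (adjusted p = 7.69e-05 and 0.00816). Alas2, the red cell enzyme that starts heme synthesis, had 509.6 and 350.3 and then 764 and 396 (0.37, adjusted p = 0.587) and reached 3646 and 3066 at 12.5 days (2.57, adjusted p = 3.81e-05). The test of the difference gave an adjusted p of 0.0607 for Alas2 and, with 13.5 days in place of 12.5 days, 0.0254. The glucose transporter Slc2a1, which red cells carry in large amounts, fell from 1699 and 1239 to 739.9 and 691 before it stood at 3307 and 2572, with a difference between steps of -3.01 (SE 0.38, adjusted p = 7.28e-05). Its fall lost the call without array 1 of 10.5 days. Of the 14 heme genes 10 rose from 10.5 to 11.5 days, among them Blvrb, a reductase of biliverdin and flavins (298 and 222, then 1588 and 1216, 2.36, adjusted p = 0.000249), the coproporphyrinogen oxidase Cpox (1.62, lost without array 1 of either stage) and ferrochelatase, Fech (1.14), and 5 rose without array 1 of 11.5 days.

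None of the 4 listed globins was called (0 of 4 by limma and under each alternative). The embryonic beta-like globin Hbb-bh1 had levels of 6562 and 6247 and then 3946 and 3509, without overlap but not called (-0.78, adjusted p = 0.222), and 777 and 2175 at 12.5 days. Another Hbb-bh1 probe set had a difference of -0.60. A further one showed no fall (1500 and 1960, then 1898 and 1835, 0.12). Hba-x, the embryonic alpha-like globin, had 7338 and 7489 and then 6797 and 6577, and Hbb-y 4075 and 4338 and then 3676 and 3709. The probe set taken for the adult beta globin Hbb-b2 had 47.0 and 11.2 and then 725 and 415, the largest of the 12 leading rises (3.77, SE 0.49, adjusted p = 2.79e-05). Adult beta globins are near-identical copies, so this signal cannot be assigned to 1 gene, and the gene's other probe set, without a suffix for shared sequence, showed a difference of 0.90 that was not called (adjusted p = 0.0759). The probe set of Hba-a1 was dim (67.3 and 61.7, then 45.4 and 38.8) and was not called.

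**Figure D4:**
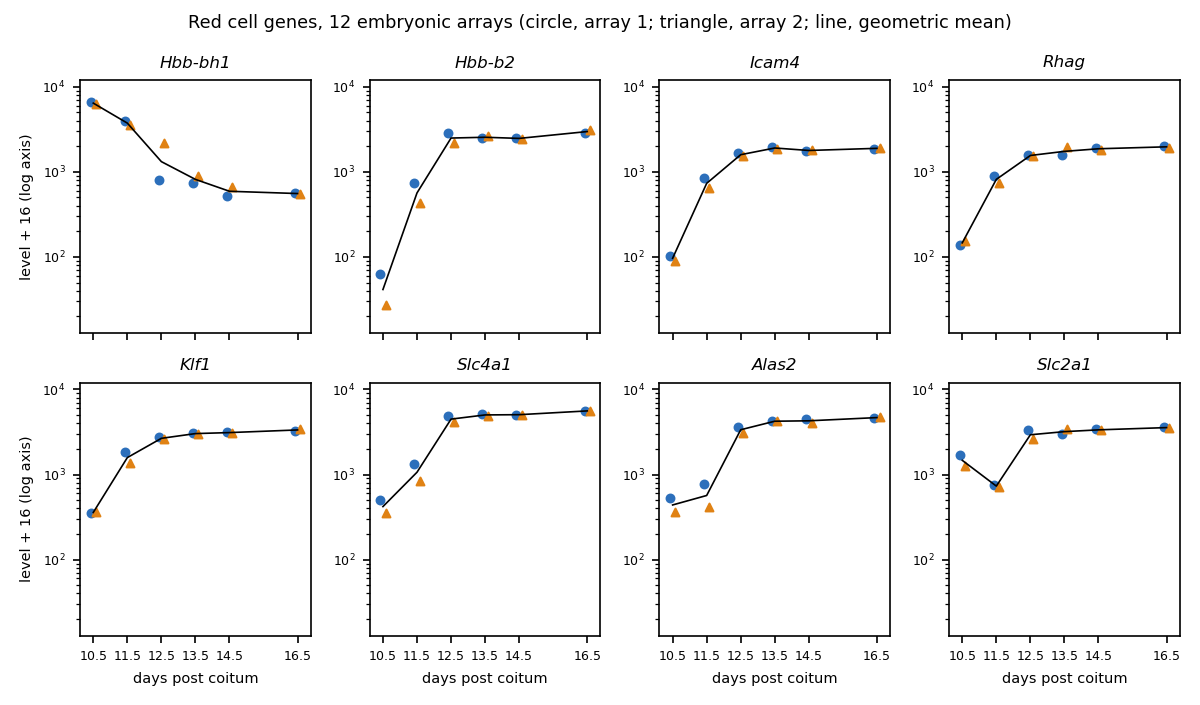
Level + 16 on a log axis against age for 8 red cell genes on the 12 embryonic arrays, with array 1 as circles, array 2 as triangles and a line through the geometric means. Icam4, Rhag and Klf1 climb most from 10.5 to 11.5 days, whereas Alas2 and Slc2a1 climb from 11.5 to 12.5 days. The Hbb-bh1 probe set shown declines.

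Iron uptake genes rose too, in a step where 3.69% of all genes rose. The transferrin receptors Tfrc (833 and 918, then 3260.1 and 2706, 1.75, adjusted p = 0.00109) and Tfr2 (35.5 and 41.0, then 202 and 206, 2.02), the reductase Steap3 (1.66) and the iron exporter Slc40a1 (1.57) rose, and the ferroxidase Heph fell (-1.25), of 10 genes of iron handling. Steap3 lost its call without array 1 of either stage.

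The transcription factors of blood formation rose in 11 of 23 cases, against 3.69% of all genes. Klf1, the activator of red cell genes, rose from 339.8 and 345 to 1803 and 1358 (4.41-fold, SE 0.24 on the log2 scale, adjusted p = 4.3e-06). Ikzf1, a factor of lymphoid and myeloid progenitors, rose from 159 and 199 to 922 and 887 (4.73-fold, adjusted p = 5.57e-06). Gfi1b, a repressor of the red cell and megakaryocyte lines, rose from 60.9 and 121 to 489 and 412 (4.53-fold, adjusted p = 1.07e-07). For all 3 the lower 11.5-day level was more than 3 times the higher 10.5-day level. Gata1, the GATA factor of both lines, rose from 331 and 399 to 1015 and 961 (1.40, adjusted p = 1.17e-06), Tal1 by 1.68 and Lmo2 by 1.33. Ikzf1, Gfi1b and the progenitor factor Myb (239 and 385, then 742 and 796, 1.30) had a larger first step than the next by the test of the difference (adjusted p = 0.0112, 0.00117 and 0.00774). Without array 1 of 10.5 days 10 of the 23 rose. Of 13 surface genes of progenitors 4 rose, among them Spn (45.0 and 89.3, then 293 and 276, 1.91, adjusted p = 5.32e-07) and Cd44 (0.96), while the stem cell factor receptor Kit (156 and 214, then 308 and 270.0, adjusted p = 0.137) and Cd34 (-0.09) were not called.

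Most platelet and megakaryocyte genes were at their highest at 11.5 days. Of 17 measured genes 11 rose, against 3.69% of all genes. For 13 of the 17 the mean at 11.5 days was the highest of all 6 embryonic stages, a share that was not counted over all genes. Their summed level was 4027 and 4333 at 10.5 days, 10286 and 11093 at 11.5 days, 6735 and 7125 at 12.5 days, and between 6143 and 6857 after that. The platelet chemokine precursor Ppbp rose from 190.2 and 167 to 1598 and 1706 (8.58-fold, SE 0.28 on the log2 scale, adjusted p = 2.51e-07). Its neighbour in the chemokine cluster, platelet factor 4 (Pf4), rose from 1436 and 1687 to 4047 and 4471 (2.72-fold, SE 0.13, adjusted p = 3.15e-07) and was at 2586 and 2668 at 12.5 days. The platelet tubulin Tubb1 rose from 129 and 144 to 618 and 697 (4.40-fold, adjusted p = 1.16e-07) and was at 296 and 371 at 12.5 days. The replicate arrays lay close together in each case, and no 11.5-day value overlapped with either neighbouring stage.

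The test of the difference between steps does not separate a rise that slows from one that turns into a fall. In the difference between steps 8 of the 17 genes were called, all in the direction of a more positive first step, against 0.539% of all genes, and 9 with 13.5 days in place of 12.5 days, against 0.506%. For Tubb1 the difference was 3.09 (SE 0.31, adjusted p = 3.31e-06), for Pf4 2.13 (adjusted p = 6.94e-06) and for the platelet protein Plek 2.52 (adjusted p = 0.00113). From 11.5 to 12.5 days 4 of the 17 genes fell, against 0.451% of all genes, among them Pf4 (-0.69, adjusted p = 0.00256), Tubb1 (-0.95, adjusted p = 0.00244) and the receptor gene Clec1b (-0.79, adjusted p = 0.00145). Itgb3, the beta chain of the fibrinogen receptor, had 88.1 and 85.5, then 309 and 323, then 138 and 149 (1.69, adjusted p = 0.00245). Its alpha partner Itga2b was bright at both stages (806 and 428, then 626 and 600.4), with overlap and without a call. Rises were called for 9 members without array 1 of 10.5 days and for 8 without array 1 of 11.5 days.

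**Figure D5:**
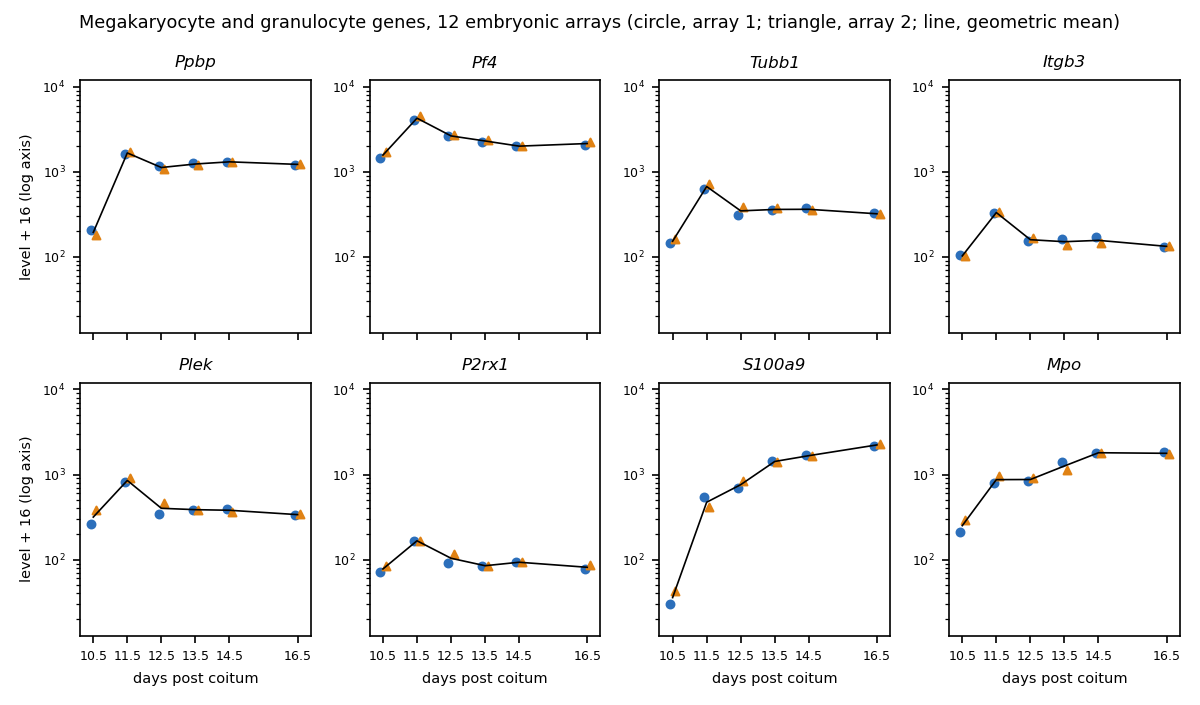
Level + 16 on a log axis against age for 6 megakaryocyte genes and for S100a9 and Mpo on the 12 embryonic arrays, with array 1 as circles, array 2 as triangles and a line through the geometric means. The 6 megakaryocyte genes peak at 11.5 days, whereas S100a9 and Mpo go on climbing.

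The letters AGATAA, the core bound by GATA factors, are in capitals in the windows of 2 red cell and 2 platelet genes that rose; TTATCT is the same site read on the other strand. On either strand they occurred in 9.99% of all windows, in 6 of the 12 windows of red cell membrane genes that rose and in 2 of the 9 windows of megakaryocyte genes. They also occurred in 8 of the 27 windows of heart genes that fell.
Icam4: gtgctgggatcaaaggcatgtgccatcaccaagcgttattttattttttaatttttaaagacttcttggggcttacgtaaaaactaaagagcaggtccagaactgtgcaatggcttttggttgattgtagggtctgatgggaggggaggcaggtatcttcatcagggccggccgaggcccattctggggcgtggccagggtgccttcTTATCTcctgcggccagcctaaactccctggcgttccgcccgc
Rhd: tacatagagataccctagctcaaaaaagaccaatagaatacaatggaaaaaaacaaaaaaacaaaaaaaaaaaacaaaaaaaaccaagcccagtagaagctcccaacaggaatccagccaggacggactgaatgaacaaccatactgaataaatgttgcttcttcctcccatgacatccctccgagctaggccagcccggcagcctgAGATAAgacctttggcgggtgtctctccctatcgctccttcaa
Gp5: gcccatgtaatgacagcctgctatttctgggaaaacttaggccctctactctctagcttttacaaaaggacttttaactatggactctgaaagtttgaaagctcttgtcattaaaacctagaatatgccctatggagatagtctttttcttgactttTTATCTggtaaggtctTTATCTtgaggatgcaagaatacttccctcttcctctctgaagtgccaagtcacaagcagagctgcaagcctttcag
P2rx1: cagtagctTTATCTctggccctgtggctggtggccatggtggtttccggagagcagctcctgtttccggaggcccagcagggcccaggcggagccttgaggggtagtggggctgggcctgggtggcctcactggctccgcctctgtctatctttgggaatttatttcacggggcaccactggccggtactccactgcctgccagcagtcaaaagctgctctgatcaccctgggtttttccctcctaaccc
The windows are chr9:21029182-21029431 on the plus strand, chr4:134864286-134864535 on the plus strand, chr16:30310782-30311031 on the minus strand and chr11:72998895-72999144 on the plus strand. In both Icam4 and Rhd the match lies 43 to 38 bases before the start, on opposite strands. Gp5, a platelet glycoprotein (101 and 152, then 309 and 334, 1.27, adjusted p = 0.00451, lost without array 1 of 10.5 days), holds 2 matches, 93 to 88 and 77 to 72 bases before the start. P2rx1, the ATP receptor of platelets (55.8 and 67.9, then 149.7 and 151, 1.10, adjusted p = 0.00096), holds 1 at 242 to 237 bases; its other probe set showed no such rise (65.9 and 52.97, then 50.2 and 69.0).

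Some macrophage and granulocyte genes rose as well. Of 23 macrophage genes 10 rose, against 3.69% of all genes. The complement gene C1qa was below 0 on both arrays of 10.5 days and at 162 and 156 at 11.5 days (adjusted p = 0.000272), and the lysosomal protease Ctss rose from 63.1 and 78.9 to 312 and 351 (4.0-fold, SE 0.20 on the log2 scale, adjusted p = 8.02e-07). Timd4, a receptor for dying cells on resident macrophages, rose from 10.9 and 10.4 to 73.1 and 73.5 (1.75, adjusted p = 1.7e-05). Csf1r, the receptor for the macrophage growth factor, had 2392 and 1344 and then 1559 and 1140.3 (adjusted p = 0.371) in its brightest probe set, with overlap, 345 and 263 and then 312 and 323 in another, and 58.6 and 100.5 and then 236 and 197 in the dimmest, which did not overlap. Adgre1, a surface receptor of macrophages, had a difference of 0.20. Among 18 neutrophil and mast cell genes 6 rose, against the same 3.69%. S100a9, a calcium-binding protein of neutrophils, went from 14.1 and 26.5 to 524 and 397 (13.2-fold, SE 0.31 on the log2 scale, adjusted p = 1.07e-07) and its partner S100a8 from 10.6 and 16.5 to 395 and 280.4 (11.9-fold, adjusted p = 5.41e-07). Myeloperoxidase, Mpo, an enzyme of early granules, rose from 196 and 279.9 to 773 and 944 (1.80, adjusted p = 4.49e-05), and the granule protein Prg2 from 25.6 and 6.71 to 159.6 and 202 (2.67). No lymphocyte gene was called (0 of 13 by limma, and 1 rise and 1 fall without array 2 of 10.5 days). Without array 1 of 10.5 days 8 macrophage and 5 granulocyte genes rose.

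Genes of cell division were mostly not called, in a step where 3.69% of all genes rose and 4.07% fell. Called or not, 27 of 33 DNA replication genes (median difference 0.28) and 18 of 29 mitosis genes (0.12) were higher at 11.5 days. Of all 18194 genes 8991 were higher. The replication licensing factor Cdc6 was the 1 rise among 33 DNA replication genes (288 and 325, then 648 and 539.6, 0.92) and lost its call without array 1 of either stage, none of 29 mitosis genes was called (0 of 29 by limma), and the proliferation marker Mki67 had 1178 and 917 and then 1383 and 1083, with overlap. With only the 12 embryonic arrays in the fit 12 replication and 3 mitosis genes rose, against 1196 of all 18194 genes. Of 25 ribosome assembly genes 1 rose, Wdr12 (0.79, lost without array 1 of 10.5 days and without either array of 11.5 days). Of the 25, 19 had their highest stage mean at 11.5 days, a share that was not counted over all genes. Of 26 genes of glycolysis and hypoxia 5 fell, Slc2a1 among them, and 2 rose, of which Pdk1, which turns pyruvate away from the mitochondria, went from 283 and 417 to 784 and 965 (1.30, adjusted p = 0.00261) and lost its call without array 1 of 10.5 days; its other bright probe set had a difference of 0.02. In that list 1 fell and 1 rose without array 1 of 10.5 days, and without array 1 or 2 of 11.5 days 3 and 2 fell. For the sex of the pools, which the labels do not give, Xist had 490.5 and 458 and then 1043 and 1257, and the Y-linked Eif2s3y 92.8 and 106 and then 55.0 and 1.78, neither called (adjusted p = 0.1 and 0.13). Their part in other differences was not tested.

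Several of the largest changes lay outside the lists. Among the 12 largest rises were Nxpe2 (164 and 147 at 11.5 days, below 0 before, but a difference of 0.23 in its other probe set), Zfp184 (17.0 and 13.2, then 459.9 and 178, adjusted p = 0.000591), the granule protein olfactomedin 4, Olfm4 (114 and 127 at 11.5 days, below 0 before, adjusted p = 6.46e-11), and Reep6 (182 and 186 at 11.5 days, below 0 before). Rgcc, a regulator of the cell cycle, rose from 114.7 and 61.9 to 855 and 815 (8.43-fold, adjusted p = 0.00111), and the claudin Cldn13 from 39.7 and 20.5 to 417 and 310.1 (8.33-fold, adjusted p = 2.3e-07). The 1 gene of the 12 largest falls that is not in the heart list was Sh3bgr, which went from 770.2 and 370.0 to 1.07 and 5.37 (-4.85, adjusted p = 2.51e-07) and, like the heart genes, was higher again at 12.5 days (28.8 and 205).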

How the data were processed

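Total RNA of pooled livers was hybridised to 1-colour Affymetrix MG 430 2.0 arrays. The authors deposited 1 intensity per probe set and array in the series matrix, on a linear scale and with 2.73 to 3.40% of values below 0 on the 4 arrays compared; its software and scaling were not given in the sources used here, and the deposited intensity was not rescaled. Values below 0 were set to 0, 16 was added and log2 taken, so the log2 values are computed from the deposited table. Of 45101 probe sets, 34958 carry 1 gene symbol in the platform annotation, 932 carry several and were not used, and 9211 are unnamed here. Each of the 18194 genes was represented by the probe set of highest mean. All 32 arrays of 16 groups entered 1 limma fit (version 3.58.1, R 4.3.3, trend in the variance), with 16 residual degrees of freedom, so arrays of other groups lend their spread to the test. Adjusted p-values are Benjamini-Hochberg values over all genes, called under 0.05 and two-sided.

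Genes named come from the 12 largest rises and falls whose stages do not overlap and whose higher mean exceeds the median of all values, up to 4 genes of smallest p per list, a set of standard markers (not every gene of these is named), and further list members picked with their values in view. The members and lists were chosen with earlier results of these data known. Data were simulated for this comparison with all 18194 genes in the fit. Of genes changed 1.5-fold 13.4% were recovered, of those changed 2-fold 50.7% and of those changed 4-fold 95.5%. Of 17994 unchanged genes 1 was called. The changed genes were drawn from those above a minimum mean level at 10.5 days, so dimmer genes were not covered. The simulated noise was normal with the same SD in every group, unlike the wider spread seen at 10.5 days. Promoter windows come from RefSeq sequence of build GRCm38.p6. Other added constants, normalizations, probe set rules, array sets and left-out arrays were tried as alternatives.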

Additional observations from a re-analysis of the deposited data

How the results depend on the processing

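Of the 126 called genes named in the text, 85 kept their call under every alternative except the fit of the compared arrays alone, and 27 lost it without array 1 of 10.5 days, 26 without array 1 of 11.5 days, 13 without array 2 of 11.5 days and 4 without array 2 of 10.5 days. Of the named genes that were not called, 13 were called under some alternative. Among 40 called genes with another probe set above the median of all values, 14 had one that moved less than 50% as far or the other way. The count of called genes between 10.5 and 11.5 days ranged from 537 to 2604 when 1 array was left out, with 276 to 1092 rises and 261 to 1512 falls. Fitting the 12 embryonic arrays alone gave 1196 rises and 842 falls, so 58.7% of calls were rises against 47.6% in the fit of all arrays. With only the arrays compared in the fit, limma called 0 genes, 0 rises and 0 falls (2821 at an unadjusted p under 0.05), and 1 gene for the difference between steps, a fall (0 rises, 1886 at an unadjusted p under 0.05); that fit has few residual degrees of freedom. The difference between steps, with 284 calls, had 462 with 64 added (318 more negative), and its 98 more positive genes became 167 with the embryonic arrays alone, 153 without the arrays of 48 h and 158 with array weights. Leaving out 1 array gave 122 to 831 calls, 34 to 260 more positive and 88 to 571 more negative. Using 13.5 days in place of 12.5 days, an alternative chosen after the data were seen, gave 266 calls. Same-numbered arrays of 10.5 and 11.5 days had a correlation of -0.07 in their deviations from the stage means. With 2 arrays a stage this value cannot show whether the numbers pair the pools. With the replicate block limma called 1365 genes, and 269 for the difference between steps. The fall of Des reversed to 0.40 with the mean of its probe sets (adjusted p = 0.484), because its other probe set was higher at 11.5 days. Scaling to one 75th percentile moved the median of all genes by 0.02. With 2 arrays a stage and values near background for dim genes, changes of less than 2-fold were mostly not detectable.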

Other observations

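Genes that no list holds also separated the stages. Prrg1, a membrane protein with a vitamin K-dependent domain, had levels of 46.8 and 21.2 at 10.5 days and 533 and 312 at 11.5 days (difference 3.13, adjusted p = 0.000868 by limma). That rise is seen in 1 of its 3 probe sets: another had 81.3 and 88.4 and then 82.6 and 78.7 (-0.06), and the remaining one a difference of 0.06. The secreted lectin Reg3g had 18.2 and 70.01 and then 422 and 447 (3.06, adjusted p = 1.64e-05).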
